A study of Mus musculus with 12 samples.

Results

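Ribosome biogenesis factors are the proteins that make and assemble ribosomes, and their transcripts were followed in Socs2-null and wildtype mouse liver before and after 2/3 hepatectomy. The group was set as 47 named genes, and each gene was represented by the probe set annotated to it alone that had the highest mean log2(intensity + 16) over the 12 arrays. By this rule 43 of the 47 members were measured, among 17097 genes in all. Gtpbp4, Gnl3, Mybbp1a and Tsr1 had no probe set of their own here. The liver samples came from adult Socs2-null mice kept on a C57BL/6 background and from adult C57BL/6 wildtype mice. In each genotype 1 group was not operated (0 h), and others were taken 24 h and 36 h after 2/3 hepatectomy, an operation in which most of the liver is removed and the rest grows back. Each of the 6 groups held 2 arrays, and each array carried RNA pooled from 3 animals, and a group therefore has n = 2 pools. There was no sham-operated group, so loss of liver and the operation itself cannot be told apart, and the sources used here state neither how the Socs2 allele was made nor the animals' sex or harvest hour.

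A ribosome begins in the nucleolus, where RNA polymerase I transcribes a long precursor that carries most of the ribosomal RNAs. Small nucleolar ribonucleoproteins (snoRNPs) modify this precursor, box C/D particles by methylation and box H/ACA particles by pseudouridylation, and separate sets of assembly factors then cut, fold and export the small and the large subunit. In liver that regrows after hepatectomy, hepatocytes enlarge and make new ribosomes before they divide.

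Levels are intensities as the authors processed them, linear and in arbitrary units, and a level can be compared between arrays but not between probe sets. Changes are differences of mean log2(intensity + 16), given with their standard error, and a gene passed the test where the Benjamini-Hochberg adjusted p from limma over all 17097 genes was under 0.05. In the check of the genotype, Socs2 read 26.4 and 27.6 in Socs2-null and 546 and 261 in wildtype pools at 0 h, 26.6 and 29.5 against 306 and 116 at 24 h, and 28.7 and 23.1 against 264 and 173 at 36 h. On all 6 Socs2-null arrays this lay below background, taken as the highest reading of 17 tag control probe sets. The 8 hepatocyte markers summed to between 72303 and 86003 on every array. The 18 hybridization controls, spiked in when an array is run, averaged 9.86 to 9.98 on the log2 scale at 0 h, 9.34 to 9.90 at 24 h and 9.02 to 9.23 at 36 h, and their part in the changes with time was not tested.

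At 24 h after hepatectomy most of the ribosome biogenesis factors stood higher than in unoperated liver. Over both genotypes 36 of the 43 measured members rose, against 17.6% of all genes, and 2 fell, against 25.6% of all genes. The median log2 change of the members was 0.85, against -0.063 for all genes. In 32 members all 4 arrays at 24 h read above all 4 arrays at 0 h, which was so for 17.9% of all genes. The rise was found in each genotype taken alone: 24 members rose and 2 fell in Socs2-null liver (10.8% and 13.5% of all genes), and 27 rose and 1 fell in wildtype liver (10.2% and 15.6% of all genes). The medians were 0.80 in Socs2-null and 0.89 in wildtype liver, and the Socs2-null median came to 0.40 without Socs2-null 24 h pool 2. In bulk RNA a change in the number of cells of a type and a change in RNA per cell cannot be told apart. The counts in 1 genotype fell without either of its 0 h pools, a fit with 1 pool in that group, while the medians moved little. They were 0.82 and 0.78 in Socs2-null liver without 0 h pool 1 or 2, and 0.90 and 0.89 in wildtype liver. Without 24 h pool 1 or 2 they were 1.18 and 0.40 in Socs2-null liver and 0.79 and 0.93 in wildtype liver. The counts also fell without Socs2-null 24 h pool 2 or either wildtype 24 h pool, and the Socs2-null count rose without Socs2-null 24 h pool 1. Over both genotypes the count stayed between 33 and 38 with any 1 array left out.

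**Figure D1:**
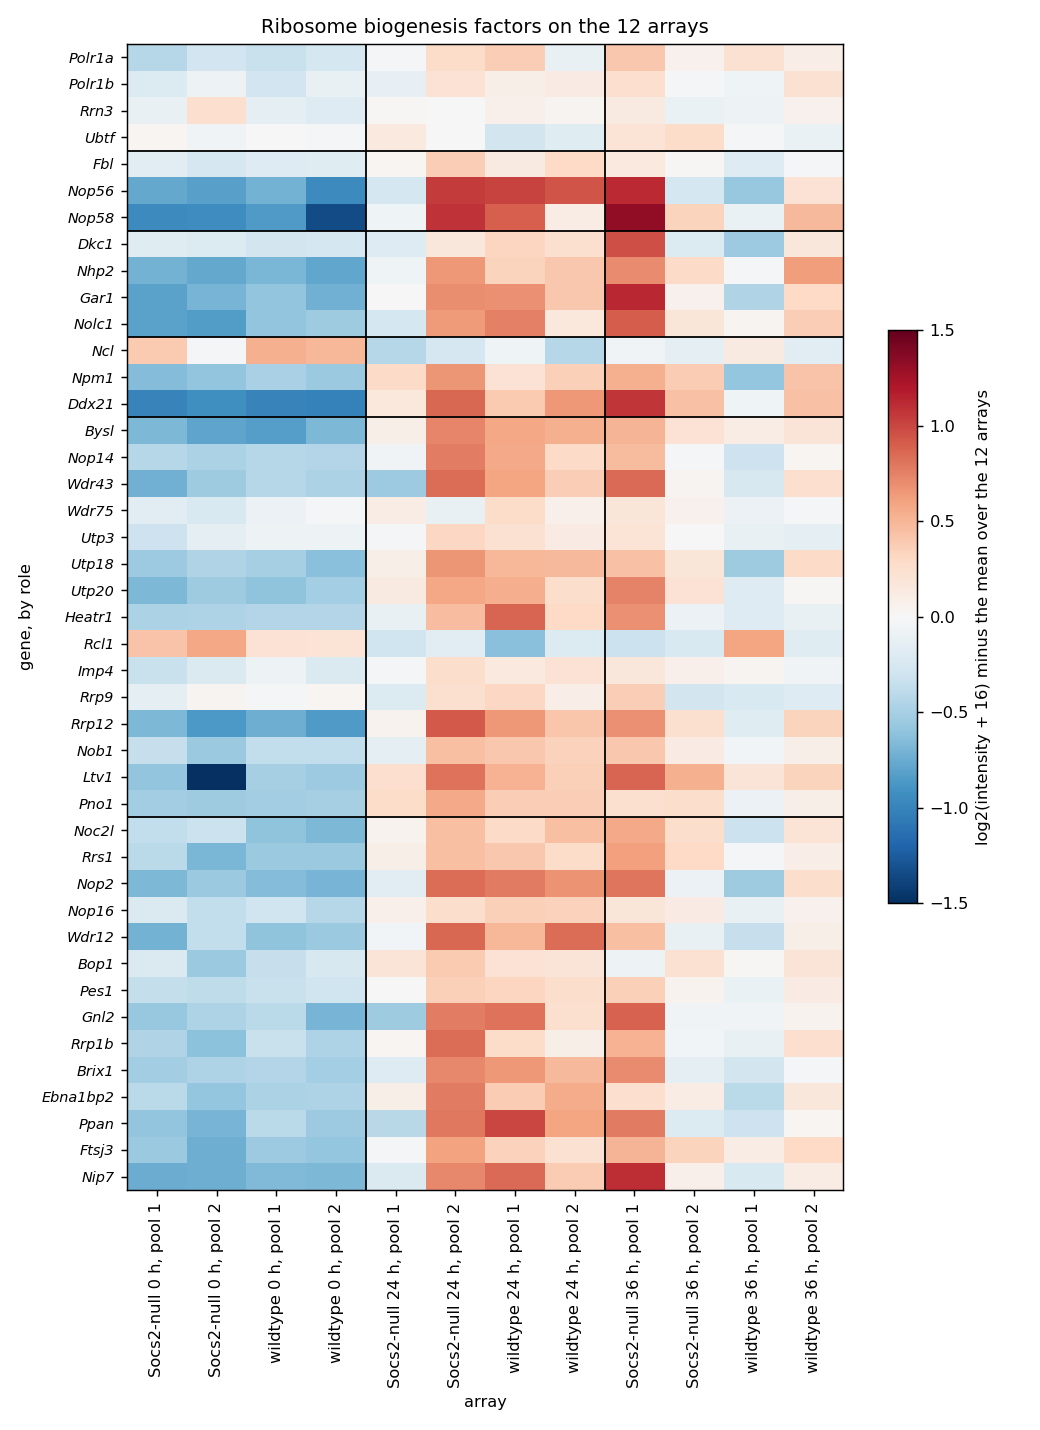
Each line is 1 of the 43 measured members, ordered by role and divided by black lines, and each column is 1 array, with Socs2-null left of wildtype at each time. Colour gives log2(intensity + 16) minus the member's mean over the 12 arrays, from blue (below) to red (above). Most members are blue at 0 h and red on the arrays at 24 h other than Socs2-null pool 1, where their median is -0.016. Ncl and Rcl1 run the other way.

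The counts and medians differed between the roles, with no test of the difference. All 14 measured factors of large subunit assembly rose at 24 h, with a median log2 change of 0.87. Of 15 measured factors of small subunit assembly 13 rose and 1 fell, with a median of 0.84. All 3 core proteins of the box C/D snoRNP rose (median 1.498), as did 3 of the 4 genes of the box H/ACA snoRNP and its chaperone (median 1.04). Among the abundant nucleolar proteins 2 rose and 1 fell. Of the 4 genes of RNA polymerase I transcription only Polr1a passed the test, and their median was 0.17. At 36 h, taken in the same order, 10, 9, 1, 3, 2 and 1 members rose. The shares over all genes were 17.6% higher and 25.6% lower at 24 h, and 14.4% higher at 36 h. In a role of 3 or 4 genes, 1 call is too few to set against these shares.

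The 4 members of RNA polymerase I transcription had the lowest median change of the roles at 24 h. Polr1a, which encodes the largest subunit of RNA polymerase I, read 125 and 139.9 in Socs2-null and 135 and 143 in wildtype pools at 0 h, 171 and 214 against 229.5 and 161 at 24 h, and 235 and 182 against 206 and 187 at 36 h. All 8 arrays after hepatectomy lay above the 4 at 0 h, with the lowest at 24 h in wildtype pool 2. Its log2 change was 0.46 ± 0.13 (adjusted p = 0.013) at 24 h and 0.52 ± 0.13 (adjusted p = 0.00839) at 36 h. Without wildtype 24 h pool 1 the 24 h change did not pass (0.34, adjusted p = 0.0525). The dimmer probe sets of Polr1a stood at 0.56 and 0.048 at 24 h, and at 0.57 and 0.25 at 36 h. Polr1b, the second largest subunit, stood at 0.25 ± 0.11 at 24 h and did not pass (adjusted p = 0.0804).

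Rrn3 encodes the initiation factor that joins RNA polymerase I to the promoter and is a known point of growth control. It read 94.8 and 127 in Socs2-null and 92.8 and 88.3 in wildtype pools at 0 h, 105 and 104 against 110.0 and 107 at 24 h, and 115 and 95.8 against 97.3 and 109 at 36 h. The highest array was an unoperated one, Socs2-null 0 h pool 2, and the groups overlapped. The change was 0.08 ± 0.097 (adjusted p = 0.515) at 24 h and 0.05 ± 0.097 (adjusted p = 0.706) at 36 h. Ubtf, the factor that binds ribosomal DNA and keeps it open, read 278 and 262 in Socs2-null and 271 and 268 in wildtype pools at 0 h, 302 and 273 against 222 and 238 at 24 h, and 317 and 333 against 269 and 252 at 36 h. Its lowest pair was wildtype at 24 h and its highest pair Socs2-null at 36 h. By this probe set it did not pass at 24 h (-0.06 ± 0.081, adjusted p = 0.551) or at 36 h (0.10 ± 0.081, adjusted p = 0.35). A second, dimmer probe set of Ubtf stood at -0.41 at 24 h and 0.53 at 36 h, and with the mean of both probe sets Ubtf passed the test, lower at 24 h (-0.24, adjusted p = 0.0332) and higher at 36 h (0.32, adjusted p = 0.011).

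The box C/D core held the 2 largest changes at 24 h. Nop58, which binds the guide RNA in the particle, read 387 and 395 in Socs2-null and 419 and 293 in wildtype pools at 0 h, 733 and 1639.5 against 1436 and 832 at 24 h, and 1946 and 968 against 715 and 1081 at 36 h. Every array after hepatectomy lay above every array at 0 h, and the pools of Socs2-null liver at 24 h and 36 h were the farthest apart, while those of Socs2-null liver at 0 h were nearly equal. The log2 change was 1.53 ± 0.32 (adjusted p = 0.0045) at 24 h and 1.53 ± 0.32 (adjusted p = 0.0058) at 36 h. Nop56, its partner, changed by 1.498 ± 0.36 (adjusted p = 0.0091) at 24 h and stood at 0.94 ± 0.36 (adjusted p = 0.0723) at 36 h. Its 24 h level was 249.96 and 641 in Socs2-null and 627 and 596 in wildtype pools, so Socs2-null pool 1 stood apart from the other 3. Fbl, the methyltransferase fibrillarin, rose less, by 0.40 ± 0.1 at 24 h (adjusted p = 0.00729).

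In the box H/ACA particle, Nhp2, Gar1 and the chaperone Nolc1 rose and the pseudouridine synthase gene Dkc1 did not pass. Nhp2, a core protein, read 577 and 553 in Socs2-null and 588 and 550.3 in wildtype pools at 0 h, 909 and 1511 against 1202 and 1269 at 24 h, and 1573 and 1164 against 940.1 and 1484 at 36 h. The lowest array after hepatectomy read 909 and the highest at 0 h 588. It rose by 1.07 ± 0.18 (adjusted p = 0.000789) at 24 h and by 1.14 ± 0.18 (adjusted p = 0.000696) at 36 h. Gar1, another core protein, read 120.1 and 130.3 in Socs2-null and 141 and 127 in wildtype pools at 0 h, 219.6 and 368 against 364 and 299 at 24 h, and 504 and 233 against 157 and 276 at 36 h. It was highest in Socs2-null 36 h pool 1 and the groups did not overlap with 0 h, with a log2 change of 1.15 ± 0.25 (adjusted p = 0.00472) at 24 h and 0.97 ± 0.25 (adjusted p = 0.0143) at 36 h. Without wildtype 36 h pool 2 the 36 h change of Gar1 did not pass (0.78, adjusted p = 0.0537). Nolc1 rose by 1.01 ± 0.22 at 24 h and 1.07 ± 0.22 at 36 h, and Dkc1 stood at 0.37 ± 0.23 and 0.33 ± 0.23.

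Among the abundant nucleolar proteins, Ddx21, an RNA helicase that links RNA polymerase I and rRNA processing, read 183 and 196 in Socs2-null and 184 and 181 in wildtype pools at 0 h, 428 and 707 against 507 and 609 at 24 h, and 824 and 524 against 366 and 526 at 36 h. At 24 h and 36 h every array was at least as high as 366, while none at 0 h passed 196. Its log2 change of 1.49 ± 0.18 (adjusted p = 0.000132) at 24 h and 1.45 ± 0.18 (adjusted p = 0.000191) at 36 h was among the largest of the group. Npm1, the histone chaperone and nucleolar scaffold nucleophosmin, read 1537 and 1599 in Socs2-null and 1721 and 1644 in wildtype pools at 0 h, 2951 and 3842 against 2809 and 3113 at 24 h, and 3522 and 3165 against 1609 and 3275 at 36 h. Wildtype 36 h pool 1 lay within the range of the 0 h arrays, and the other 7 arrays after hepatectomy lay above it. Npm1 rose by 0.95 ± 0.18 (adjusted p = 0.00213) at 24 h and by 0.76 ± 0.18 (adjusted p = 0.00912) at 36 h.

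Ncl, which encodes nucleolin, fell by its only probe set, a dim one. It read 69.7 and 48.6 in Socs2-null and 78.7 and 76.2 in wildtype pools at 0 h, 32.5 and 39.1 against 46.9 and 32.7 at 24 h, and 47.3 and 43.4 against 55.7 and 42.4 at 36 h. All 4 arrays at 24 h lay below those at 0 h, and at 36 h wildtype pool 1 overlapped with them. The Socs2-null arrays at 24 h were under background, so the drop in Socs2-null liver at 24 h is given as at least 1.42-fold on the scale of intensity + 16. Over both genotypes its log2 change was -0.64 ± 0.11 (adjusted p = 0.00115) at 24 h and -0.40 ± 0.11 (adjusted p = 0.0186) at 36 h. The 36 h call was lost without any 1 of 4 arrays, at adjusted p of 0.0559 to 0.0745.

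In small subunit assembly the smallest p-values at 24 h belonged to Pno1 and Bysl. Pno1 acts with the endonuclease Nob1 in the last cut of 18S rRNA. It read 618 and 614 in Socs2-null and 617 and 628 in wildtype pools at 0 h, 1086 and 1334 against 1159 and 1158 at 24 h, and 1064 and 1077 against 844 and 953 at 36 h. Apart from Socs2-null at 24 h and wildtype at 36 h the pools of a group were nearly equal, and each array after hepatectomy lay above each at 0 h. Its log2 change was 0.91 ± 0.089 (adjusted p = 3.17e-05) at 24 h and 0.65 ± 0.089 (adjusted p = 0.000299) at 36 h. Bysl, which encodes bystin, read 163 and 149.6 in Socs2-null and 145 and 163 in wildtype pools at 0 h, 289 and 461 against 413 and 398 at 24 h, and 390.4 and 316 against 292 and 312 at 36 h. It rose by 1.23 ± 0.13 (adjusted p = 5.74e-05) at 24 h and by 1.00 ± 0.13 (adjusted p = 0.000244) at 36 h, with no overlap between 0 h and later arrays. Its second probe set gave smaller changes in the same direction, 0.44 and 0.35.

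Utp20 belongs to the small subunit processome, the large particle that forms on the nascent precursor. It read 135 and 149 in Socs2-null and 142 and 152 in wildtype pools at 0 h, 247 and 342 against 334 and 272 at 24 h, and 383 and 262 against 194 and 227 at 36 h. It rose by 0.96 ± 0.14 (adjusted p = 0.000319) at 24 h and 0.78 ± 0.14 (adjusted p = 0.00152) at 36 h, and its highest array was Socs2-null 36 h pool 1. Heatr1, another processome protein, read 279 and 281 in Socs2-null and 288 and 288 in wildtype pools at 0 h, 365 and 549 against 739 and 491 at 24 h, and 646 and 369.6 against 343 and 364 at 36 h. All arrays at 24 h and 36 h were above those at 0 h, and wildtype 24 h pool 1 was the highest. It rose by 0.84 ± 0.19 (adjusted p = 0.00434) at 24 h and 0.53 ± 0.19 (adjusted p = 0.0485) at 36 h. Its dimmer probe sets stood at 0.036 and -0.20 at 24 h, and with the mean of all 3 neither time passed (0.23, adjusted p = 0.086 at 24 h, and 0.22, adjusted p = 0.111 at 36 h).

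Ltv1, a factor of late small subunit maturation and export, read 369 and 107 in Socs2-null and 395 and 383 in wildtype pools at 0 h, 673 and 1007 against 820.4 and 725 at 24 h, and 1050.3 and 821 against 646 and 717 at 36 h. Socs2-null 0 h pool 2 was far below the other 3 unoperated arrays, and every later array lay above all of them. The log2 change was 1.45 ± 0.30 (adjusted p = 0.00412) at 24 h and 1.45 ± 0.30 (adjusted p = 0.00546) at 36 h. Its size rested on that pool and came to 1.04 at both times without it, with adjusted p still under 0.05. Rrp12, an export factor, was under background at 0 h in both genotypes and rose at least 2.32-fold in Socs2-null and 2.303-fold in wildtype liver at 24 h, and at least 2.28-fold and 1.67-fold at 36 h, on the scale of intensity + 16.

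Rcl1, an endonuclease of the early small subunit precursor in yeast, ran against its list. It read 1944 and 2175 in Socs2-null and 1675 and 1668 in wildtype pools at 0 h, 1172 and 1293 against 927 and 1255 at 24 h, and 1156 and 1233 against 2191 and 1269 at 36 h. At 24 h all 4 arrays lay below all 4 at 0 h, while at 36 h wildtype pool 1 was the highest of the 12 arrays. Rcl1 fell at 24 h (-0.68 ± 0.15, adjusted p = 0.00464) and did not pass at 36 h (-0.39 ± 0.15, adjusted p = 0.0714), where it passed without wildtype 36 h pool 1 (-0.58, adjusted p = 0.00354). Rrp9, a protein of the U3 snoRNP, read 143 and 165 in Socs2-null and 157 and 163 in wildtype pools at 0 h, 137 and 192 against 201 and 172 at 24 h, and 211 and 129.6 against 134 and 138 at 36 h. Its groups overlapped and its change was 0.14 ± 0.14 (adjusted p = 0.469) at 24 h and -0.06 ± 0.14 (adjusted p = 0.79) at 36 h. Wdr75 was under background on all 12 arrays, with readings of 20.6 to 35.8, so its place among the 36 members called at 24 h (adjusted p = 0.0391) carries no fold.

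The other small subunit factors rose at 24 h by log2 changes of 0.31 (Utp3) to 0.96 (Utp18). Between these stood Imp4 of the U3 snoRNP complex (0.36), the endonuclease gene Nob1 (0.68), and the processome genes Nop14 (0.83) and Wdr43 (0.86). A second probe set of Imp4 pointed the other way, with -0.41 at 24 h. Of the 26 further probe sets of members that were above background on some array, 23 had the same sign at 24 h as the one used, and the exceptions belonged to Imp4, Heatr1 and Noc2l.

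**Figure D2:**
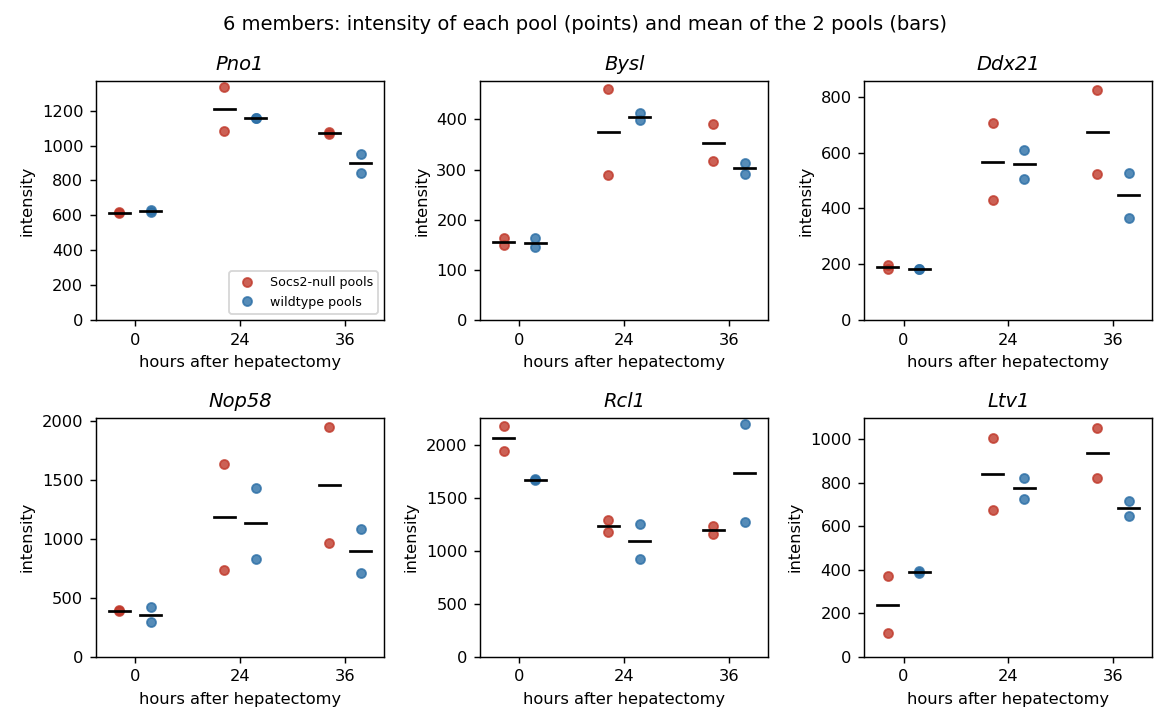
Intensity of 6 members against hours after hepatectomy, with each point 1 pool, red for Socs2-null and blue for wildtype, and each bar the mean of 2 pools. Pno1, Bysl, Ddx21 and Nop58 are higher at 24 and 36 h than at 0 h, Rcl1 is lower at 24 h, and Ltv1 has 1 Socs2-null pool at 107 at 0 h.

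In large subunit assembly the smallest p-values belonged to Rrs1 and Ftsj3. Rrs1 helps to place the 5S ribonucleoprotein in the large subunit. By a probe set whose design allows cross-hybridization it read 353 and 288 in Socs2-null and 317 and 315 in wildtype pools at 0 h, 502 and 649.5 against 629 and 573 at 24 h, and 734 and 583 against 462 and 506 at 36 h. No later array overlapped the 0 h arrays. It rose by 0.85 ± 0.12 (adjusted p = 0.000217) at 24 h and 0.80 ± 0.12 (adjusted p = 0.000417) at 36 h. Ftsj3, a relative of a yeast rRNA methyltransferase, read 119.9 and 105 in Socs2-null and 121 and 118 in wildtype pools at 0 h, 182 and 289 against 238 and 218 at 24 h, and 269 and 236 against 200.1 and 230.4 at 36 h. Its changes were 0.89 ± 0.13 (adjusted p = 0.000307) at 24 h and 0.92 ± 0.13 (adjusted p = 0.000334) at 36 h, with all later arrays above those at 0 h.

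Nop2, an rRNA cytosine methyltransferase, had the largest change at 24 h in this role. It read 101 and 111 in Socs2-null and 103 and 99.0 in wildtype pools at 0 h, 151 and 317 against 304 and 281 at 24 h, and 311 and 160.3 against 113 and 209 at 36 h. The 24 h arrays were all above those at 0 h, with Socs2-null pool 1 the lowest, and at 36 h Socs2-null pool 1 stood out above the other 3. The change was 1.17 ± 0.26 (adjusted p = 0.00504) at 24 h and 0.76 ± 0.26 (adjusted p = 0.0459) at 36 h. The 36 h call was lost under 11 of the 23 alternatives tried. Brix1, a factor of early large subunit assembly, read 507 and 529 in Socs2-null and 541 and 513 in wildtype pools at 0 h, 641 and 1222 against 1166 and 1043 at 24 h, and 1219 and 664 against 606 and 729 at 36 h. All 8 later arrays lay above the 4 at 0 h, with Socs2-null pool 1 the lowest at 24 h and the highest at 36 h. Brix1 rose at 24 h (0.90 ± 0.21, adjusted p = 0.00673) and did not pass at 36 h (0.55 ± 0.21, adjusted p = 0.069). Noc2l, whose yeast relative escorts large subunit precursors, read 109 and 114 in Socs2-null and 90.8 and 85.8 in wildtype pools at 0 h, 153 and 207 against 182 and 206 at 24 h, and 226 and 179 against 114 and 172 at 36 h. It rose by 0.81 ± 0.13 (adjusted p = 0.000731) at 24 h and 0.68 ± 0.13 (adjusted p = 0.00275) at 36 h. No later array overlapped with 0 h, but wildtype 36 h pool 1 (114.38) and Socs2-null 0 h pool 2 (114.02) were nearly equal. A dimmer probe set of Noc2l was flat, at -0.033 at 24 h and 0.032 at 36 h.

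The 3 proteins of the PeBoW complex, which is needed to process the 5.8S and 28S rRNAs, rose together at 24 h, by 0.58 ± 0.11 (Pes1), 0.59 ± 0.11 (Bop1) and 1.10 ± 0.21 (Wdr12). At 36 h Pes1 and Bop1 were still called and Wdr12 was not (0.58 ± 0.21, adjusted p = 0.052). Nip7 rose by 1.14 ± 0.25, Ppan by 1.05 ± 0.27, Ebna1bp2 by 0.93 ± 0.16, Gnl2 by 0.85 ± 0.29, Rrp1b by 0.77 ± 0.18 and Nop16 by 0.59 ± 0.09 at 24 h. Of these, Ppan and Gnl2 did not pass at 36 h (adjusted p of 0.103 and 0.0797).

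At 36 h after hepatectomy 26 members stood higher than at 0 h over both genotypes and 1, Ncl, stood lower, against 14.4% and 19.4% of all genes. The median was 0.62, against -0.048 for all genes. In 31 members every 36 h array lay above every 0 h array, which was so for 15.9% of all genes, and in none did every array lie below, which was so for 20.1%. In Socs2-null liver 21 members rose and 1 fell at 36 h (9.84% and 10.1% of all genes), with a median of 0.77. In wildtype liver 6 rose and 1 fell (5.69% and 9.5% of all genes), with a median of 0.45 (0.24 without wildtype 36 h pool 2), although 38 of the 43 members had a higher mean at 36 h than at 0 h. The members that passed in wildtype liver were Bysl, Ddx21, Nhp2, Pno1, Rrs1 and Ftsj3, which rose, and Ncl, which fell. Both counts fell without either 0 h pool of the genotype, a fit with 1 pool in that group, while the medians moved little. They were 0.77 and 0.79 in Socs2-null liver without 0 h pool 1 or 2, and 0.42 and 0.41 in wildtype liver. Leaving out a 36 h pool moved them more. Without 36 h pool 1 or 2 they were 0.53 and 1.06 in Socs2-null liver and 0.60 and 0.24 in wildtype liver. The Socs2-null count also moved without either Socs2-null 24 h pool, arrays that enter only the shared estimate of spread.

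Set directly against 24 h, no member passed at 36 h in limma in Socs2-null liver (0% of all genes higher and 0.00585% lower), in wildtype liver (0.216% and 0.0234%) or over both genotypes (0.246% and 0.0409%). In wildtype liver 39 of the 43 members had a lower mean at 36 h than at 24 h, with a median of -0.36 (-0.23 without wildtype 36 h pool 1), and 16 had an unadjusted p under 0.05, against 14.9% of all genes. In 30 members both 36 h pools lay below both 24 h pools, against 22.8% of all genes, and in 2, Ubtf and Rcl1, above (23.3% of all genes). In Socs2-null liver 29 members had a higher mean at 36 h, the median was 0.071, none had an unadjusted p under 0.05 (7.18% of all genes), and 40 overlapped between the times (19.1% of all genes lay above and 13.8% below). That direction turned with the pool left out, with 6 members higher without Socs2-null 24 h pool 1 and 40 without 24 h pool 2. It was 7 without Socs2-null 36 h pool 1 and 38 without 36 h pool 2.

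**Figure D3:**
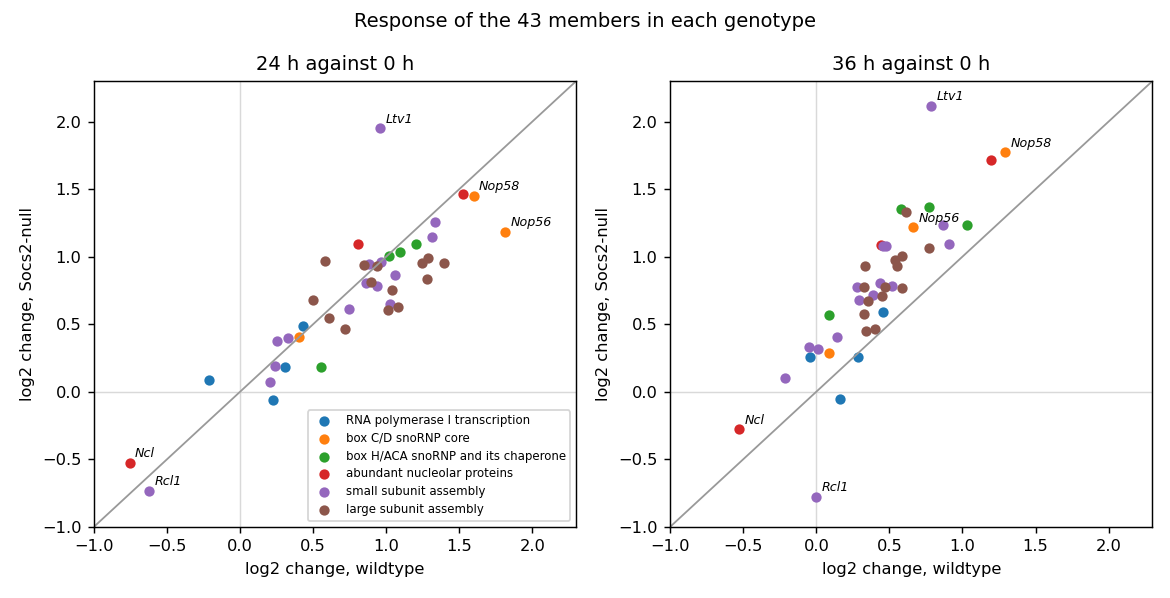
Log2 change of each of the 43 members in Socs2-null liver (vertical) against wildtype liver (horizontal), at 24 h and 36 h against 0 h of the same genotype, with colours for the roles and a line of equal change. At 24 h the points lie on both sides of the line, and at 36 h 40 of the 43 lie above it.

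Between the genotypes no member passed in limma at 0 h, 24 h, 36 h or averaged over the times, and few genes of any kind did. The share of all genes called higher in Socs2-null liver was 0% at 0 h and 0.00585% in each of the other 3 comparisons, and the share called lower was 0% at 0 h, 0.00585% at 24 h, 0.0175% at 36 h and 0.0234% over the times. In unoperated liver 17 of the 43 members had a higher mean in Socs2-null than in wildtype pools, with a median of -0.024, against -0.037 for all genes, while with each array centred on its median 29 were higher. No member had an unadjusted p under 0.05, against 4.95% of all genes. The test takes each gene's spread from all groups, and pools differed more after hepatectomy than at 0 h. It therefore cannot show that the genotypes were alike at 0 h. Both Socs2-null pools lay above both wildtype pools in 4 members and below them in 12, against 13.9% and 27.9% of all genes. Ltv1 had the smallest p, with -0.90 ± 0.42 (adjusted p = 0.997), and this rested on Socs2-null 0 h pool 2. Without pool 1 of that group Ltv1 passed, at -1.72 (adjusted p = 0.0317), and without pool 2 it stood at -0.073. Ncl stood at -0.33 ± 0.16 and Rrn3 at 0.24 ± 0.14.

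At 24 h 9 members had a higher mean in Socs2-null than in wildtype liver, with a median of -0.074, and 1 had an unadjusted p under 0.05, against 8.24% of all genes. In 39 members the pools of the genotypes overlapped, in 1 both Socs2-null pools lay above (15% of all genes) and in 3 below (19.1% of all genes). Ubtf was the member above, with 302 and 273 in Socs2-null and 222 and 238 in wildtype pools and a difference of 0.30 ± 0.11 (adjusted p = 0.535). Heatr1 stood at -0.42 ± 0.26. The direction turned with the pool left out, with 36 members higher in Socs2-null liver without Socs2-null 24 h pool 1 and 2 without pool 2.

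At 36 h 40 of the 43 members had a higher mean in Socs2-null than in wildtype liver, with a median of 0.30 against -0.0081 for all genes, of which 47.6% were higher. None passed the test (lowest adjusted p = 0.648), and 5 had an unadjusted p under 0.05, against 6.44% of all genes. Both Socs2-null pools lay above both wildtype pools in 15 members and below them in 1, Rcl1, against 15.2% and 17.6% of all genes. Utp20 read 383 and 262 in Socs2-null and 194 and 227 in wildtype pools, which did not overlap, a difference of 0.56 ± 0.20 (unadjusted p = 0.0154 and adjusted p = 0.648 in limma). Ubtf read 317 and 333 against 269 and 252 (0.30 ± 0.11, adjusted p = 0.681), and Rrs1 read 734 and 583 against 462 and 506 (0.42 ± 0.16, adjusted p = 0.686). Without Socs2-null 36 h pool 1 the count was 29 of 43 and the median 0.11, and without wildtype 36 h pool 1 they were 37 and 0.18. Without pool 2 of either genotype at 36 h the median was higher, at 0.57 without the Socs2-null and 0.49 without the wildtype pool.

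Taken pool by pool at 36 h, Socs2-null pool 1 was higher than wildtype pool 1 in 40 members (median 0.69) and than wildtype pool 2 in 41 (median 0.35). Socs2-null pool 2 was higher than wildtype pool 1 in 37 members (median 0.23) and than wildtype pool 2 in 17 (median -0.049). So 3 of the 4 pairs of pools had most members higher in Socs2-null liver, and the pair of second pools did not.

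The tests of a genotype difference in the response called no member either, in limma, and of all genes they called 0% at 24 h, 0.00585% (lower) at 36 h and 0% between 24 h and 36 h. The change at 36 h was larger in Socs2-null than in wildtype liver in 40 members, with a median difference of 0.33 against 0.048 for all genes, and 1 member had an unadjusted p under 0.05, against 3.74% of all genes. That median was 0.14 without Socs2-null 36 h pool 1 (31 members), 0.20 without wildtype 36 h pool 1 (36 members) and 0.54 without Socs2-null 36 h pool 2 (40 members). The smallest p belonged to Rcl1 (-0.77 ± 0.31), Utp20 (0.61 ± 0.28) and Ltv1 (1.34 ± 0.60), with adjusted p of 0.999 for Rcl1. Ltv1 passed when Socs2-null 0 h pool 1 was left out (2.16, adjusted p = 0.0463). At 24 h 11 members had the larger change in Socs2-null liver, with a median difference of -0.083, against 0.027 for all genes. The direction turned without Socs2-null 24 h pool 1 (36 members, median 0.20), while the median was -0.35 without Socs2-null 24 h pool 2, -0.040 without wildtype 24 h pool 1 and -0.16 without wildtype 24 h pool 2. The change between 24 h and 36 h was higher in Socs2-null liver in 40 members, with a median difference of 0.44, against 0.014 for all genes, and 3 members had an unadjusted p under 0.05, against 5.11% of all genes. The median came to 0.096 without Socs2-null 24 h pool 1 (34 members), 0.24 without Socs2-null 36 h pool 1, 0.28 without wildtype 36 h pool 1 and 0.68 without Socs2-null 24 h pool 2. Heatr1 stood at 0.87 ± 0.37, Noc2l at 0.59 ± 0.27 and Wdr75, under background, at 0.35 ± 0.15 (adjusted p of 0.896 for Heatr1). Averaged over the 3 times, 33 members were higher in Socs2-null liver with a median of 0.031, against -0.022 for all genes. That direction was not stable, with 12 members higher without Socs2-null 24 h pool 2 (median -0.043), 19 without Socs2-null 36 h pool 1 (-0.035), 21 without wildtype 36 h pool 1 (-0.0037) and 40 without Socs2-null 24 h pool 1 (0.16). Ubtf had the smallest p, at 0.20 ± 0.066 (unadjusted p = 0.0108 and adjusted p = 0.344 in limma).

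The 2 pools of a group differed more after hepatectomy than before it, in the members and in all genes, and the members moved together. At 0 h the median difference between pools, pool 2 minus pool 1, was -0.0094 in Socs2-null and -0.018 in wildtype liver. In Socs2-null liver at 24 h it was 0.57, with 40 of 43 members higher in pool 2, where all genes had a median of 0.055. In Socs2-null liver at 36 h it was -0.34, with 39 members higher in pool 1. In wildtype liver it was -0.10 at 24 h and 0.23 at 36 h, where 37 members were higher in pool 2. For all genes the 5th to 95th percentiles of this difference ran from -0.35 to 0.25 in Socs2-null liver at 0 h. They ran from -0.45 to 0.53 at 24 h and from -0.43 to 0.42 at 36 h. In wildtype liver they ran from -0.23 to 0.23, from -0.36 to 0.35 and from -0.39 to 0.45. Of the 43 members 18 had their highest reading in Socs2-null 36 h pool 1 and 17 in Socs2-null 24 h pool 2.

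**Figure D4:**
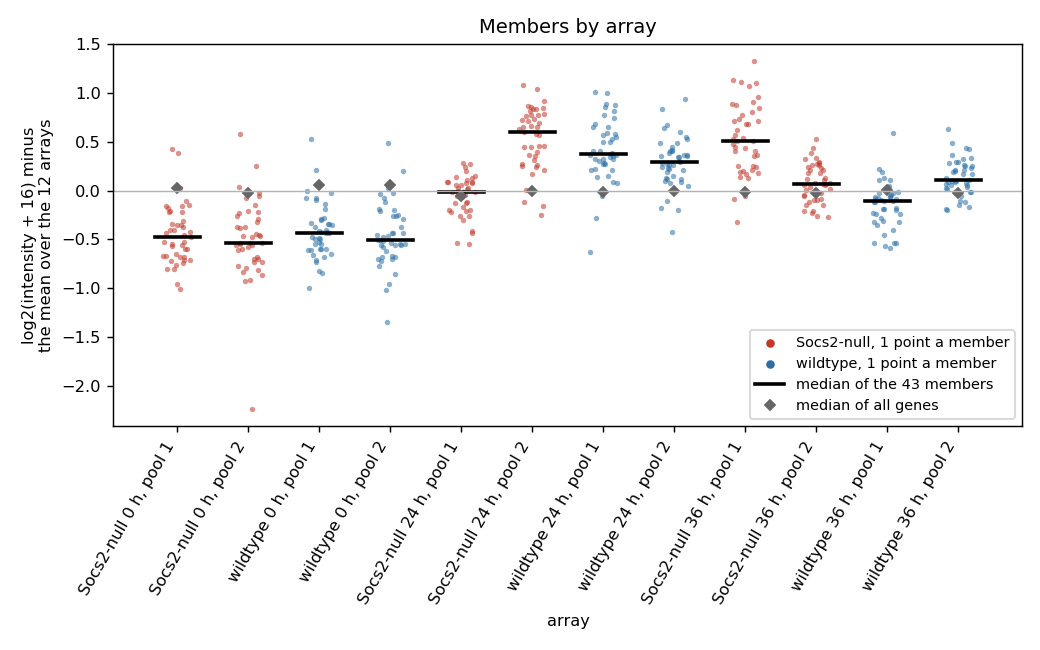
Each point is 1 of the 43 members on 1 array, as log2(intensity + 16) minus its mean over the 12 arrays, red for Socs2-null and blue for wildtype. Bars are the medians of the members and diamonds the medians of all genes. The members' medians run from -0.53 to -0.43 at 0 h, and at 24 h the Socs2-null pools stand at -0.016 and 0.61.

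Genes of DNA replication and mitosis, which mark dividing cells, ran against the members between pools in Socs2-null liver after hepatectomy and the same way as the members in wildtype liver. The 11 measured genes of that list had a median difference between pools of -0.61 in Socs2-null liver at 24 h, where the members stood at 0.57, and of 0.25 in Socs2-null liver at 36 h, where the members stood at -0.34. In wildtype liver at 24 h both were slightly lower in pool 2, with medians of -0.084 for the replication list and -0.10 for the members. In wildtype liver at 36 h both were higher in pool 2, by 0.77 for the replication list and 0.23 for the members. For the hybridization controls the difference, pool 2 minus pool 1, was 0.38 in Socs2-null liver at 24 h, -0.21 in Socs2-null liver at 36 h, -0.27 in wildtype liver at 24 h and -0.14 in wildtype liver at 36 h. The neutrophil markers summed to between 304 and 1731 in the Socs2-null pools at 24 h. The part of these in the members' values was not tested.

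**Figure D5:**
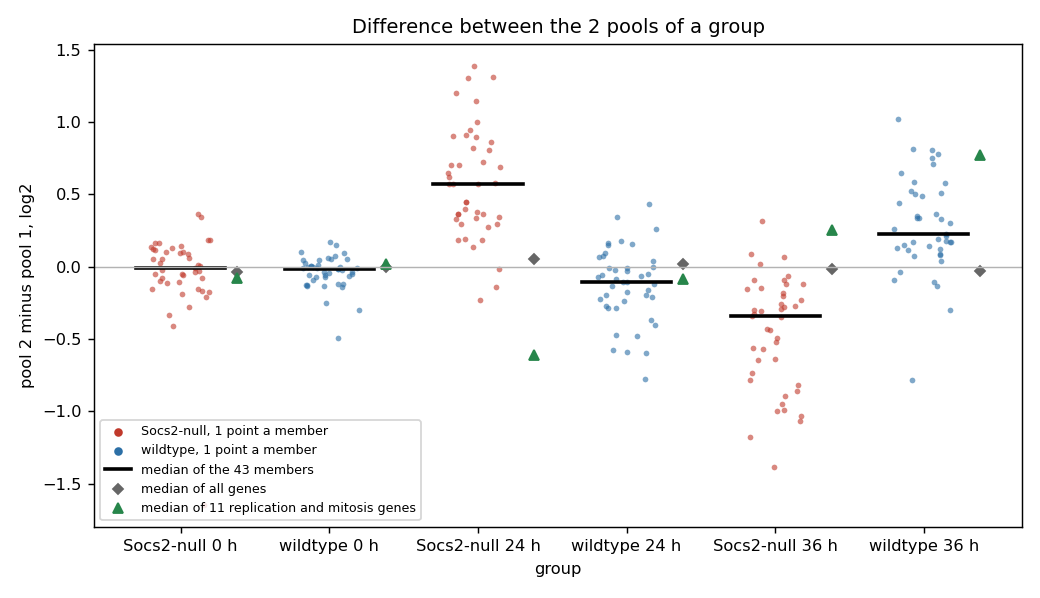
Difference between pool 2 and pool 1 of each group, in log2(intensity + 16), with 1 point for each of the 43 members, bars for their medians, diamonds for all genes and triangles for 11 replication and mitosis genes. Members lie around 0 at 0 h, mostly above 0 in Socs2-null liver at 24 h and mostly below 0 in Socs2-null liver at 36 h.

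Lists of other cells and processes were also compared with 0 h. Over both genotypes 9 of 11 replication and mitosis genes rose at 24 h (median 0.94) and 7 at 36 h (median 0.72). Of 8 hepatocyte markers 4 fell at 24 h (median -0.17), of 11 Kupffer cell and macrophage markers 2 rose and 4 fell (median -0.19), and of 4 neutrophil markers 2 rose and 1 fell (median 0.72). Of all genes 17.6% rose and 25.6% fell at 24 h, and 14.4% rose at 36 h. The Kupffer cell and macrophage counts were not far from these shares. The 3 erythroid markers summed to between 2658 and 4170 at 24 h, against 8137 to 8389 at 0 h. Their part in the members' changes was not tested.

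Other genes of the pathway rose as well, with a lower median than the members at both times and no test of that difference. Of 111 listed, 94 were measured, and at 24 h over both genotypes 63 rose and 3 fell, with a median log2 change of 0.46. Of all genes 17.6% rose and 25.6% fell at 24 h, and 14.4% and 19.4% at 36 h. At 36 h 44 rose and 2 fell, with a median of 0.35. Eif6, which keeps new large subunits from joining small ones too early, changed by 1.63 ± 0.22 at 24 h (adjusted p = 0.000339), above the highest change of any member (1.53), and Utp6 of the processome by 1.37 ± 0.15 (adjusted p = 6.04e-05). Polr1e, a subunit of RNA polymerase I, rose by 1.15 ± 0.19 and Tcof1, the nucleolar protein treacle, by 0.70 ± 0.12. With these 2, 4 of 8 other RNA polymerase I genes rose at 24 h. In the genes that build snoRNPs, 3 of 5 rose, the ATPase genes Ruvbl1 (0.80) and Ruvbl2 (0.95) and Snu13 (0.96). Of 10 genes of the RNA exosome, which trims the ends of rRNA precursors, 8 rose and 1 fell, with Mphosph6 at 0.75 and Exosc2 at 0.76. Between genotypes at 36 h 84 of the 94 had a higher mean in Socs2-null liver (median 0.20), and none passed.

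MYC, a transcription factor that binds DNA as a pair with MAX, is known to drive many ribosome biogenesis genes. Myc itself read 144 and 53.3 in Socs2-null and 146 and 140.5 in wildtype pools at 0 h, 84.1 and 191 against 238 and 198 at 24 h, and 339 and 105 against 176 and 215 at 36 h. Socs2-null 0 h pool 2, Socs2-null 24 h pool 1 and 36 h pool 2 were low, and the groups overlapped, with changes of 0.50 ± 0.39 (adjusted p = 0.339) at 24 h and 0.69 ± 0.39 (adjusted p = 0.215) at 36 h. Of the 9 measured genes of its network, the 4 with the smallest p at 24 h are given. Mxi1 (-0.68 ± 0.10) and Mxd4 (-0.64 ± 0.11), which encode MAX partners that oppose MYC, and Mycl (-0.52 ± 0.099) fell. Mlx (0.53 ± 0.13) rose. Of all genes 25.6% fell and 17.6% rose. In Mxd1, Mxd3 and Mnt, other such partners on the list, the arrays at 24 h overlapped with those at 0 h.

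Since most members rose together, their promoters were searched for CACGTG, the E-box that MYC and MAX bind, which reads the same on both strands. The windows were RefSeq's, on build GRCm38.p6, from 250 bases before to 50 after each gene's start. Of the 47 members 41 had a window, and 11 of them (26.8%) held the motif. It was found in 9.004% of 13605 measured genes with a window, in 7.24% of 27025 genes in all, and in 13 of 88 (14.8%) other ribosome biogenesis genes. Among members called higher at 24 h 8 of 30 windows held it, and among those measured and not called higher 1 of 7, Rrn3. The others with the motif were Imp4, Ltv1, Nop2, Pes1, Pno1, Utp18, Utp20 and Wdr43, and, not measured, Mybbp1a and Tsr1. In 4 of the 11 it began before the start, at base -121 in Imp4, -60 in Nop2, -20 in Utp18, and -215 and -48 in Rrn3. Of all measured genes called higher at 24 h, 274 of 2471 windows (11.1%) held it. The members that rose make up most of the members with a window, so 8 of 30 and 11 of 41 cannot be set against each other. Whether the motif goes with the rise was not tested, and a match is only a string of letters.

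The 250 bases before the start are printed for 4 members, 5′ to 3′ on the gene's own strand and with CACGTG in capitals, to set 2 members that rose and hold the motif (Nop2, Utp18) beside 1 that rose without it (Bysl) and 1 that holds it and was not called (Rrn3).
Nop2, chr6:125131633-125131882, plus strand: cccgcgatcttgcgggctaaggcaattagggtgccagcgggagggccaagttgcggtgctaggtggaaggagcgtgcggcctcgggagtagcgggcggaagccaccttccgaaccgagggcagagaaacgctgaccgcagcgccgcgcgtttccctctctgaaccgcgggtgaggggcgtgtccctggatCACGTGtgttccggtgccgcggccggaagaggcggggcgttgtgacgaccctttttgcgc
Utp18, chr11:93885767-93886016, minus strand: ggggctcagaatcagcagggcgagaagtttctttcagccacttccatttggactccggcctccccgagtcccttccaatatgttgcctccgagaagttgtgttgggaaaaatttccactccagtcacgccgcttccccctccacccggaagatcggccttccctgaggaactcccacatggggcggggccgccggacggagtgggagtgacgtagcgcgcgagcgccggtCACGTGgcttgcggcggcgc
Bysl, chr17:47611493-47611742, minus strand: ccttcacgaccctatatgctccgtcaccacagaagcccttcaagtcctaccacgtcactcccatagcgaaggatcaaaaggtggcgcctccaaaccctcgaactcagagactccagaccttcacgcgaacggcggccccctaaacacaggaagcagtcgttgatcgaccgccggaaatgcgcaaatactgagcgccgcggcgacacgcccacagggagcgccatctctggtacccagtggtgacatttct
Rrn3, chr16:13780449-13780698, plus strand: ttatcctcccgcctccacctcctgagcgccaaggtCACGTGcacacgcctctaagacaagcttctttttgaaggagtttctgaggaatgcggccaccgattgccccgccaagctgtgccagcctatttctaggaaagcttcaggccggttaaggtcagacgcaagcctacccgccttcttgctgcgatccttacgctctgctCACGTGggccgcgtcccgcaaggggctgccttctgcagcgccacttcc

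The E-box of Nop2 and Utp18 lies close to the start, as the sequences show, and both genes rose at 24 h. Rrn3 carries 2 and was not called at either time. Bysl carries none in its whole window, and had the second smallest p of the members at 24 h.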

How the data were processed

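Liver RNA of 12 pools, each from 3 animals, was measured on 12 one-colour arrays with 45141 probe sets, from 10 micrograms of total RNA each, per the labels' protocols. The deposited values are linear intensities between 1 and 24717 as the authors processed them; their background correction, summarization and normalization are not stated in the sources used here. Of the probe sets, 28898 name 1 gene in the platform annotation and 551 name several. Nothing was rescaled or filtered. A gene was its brightest probe set by mean log2(intensity + 16) over all arrays, which gave 17097 genes. In R 4.3.3 limma 3.58.1, with statmod 1.5.0, fitted a mean for each of the 6 groups on log2(intensity + 16), with trended and robust eBayes, and tested 16 comparisons two-sided. P-values were adjusted by Benjamini-Hochberg within a comparison, over every gene, at 0.05. So few arrays limit the precision. Each gene has 1 estimate of spread for all 6 groups, although pools differed more after hepatectomy than at 0 h. A standard error therefore need not fit a given group. A group was under background where each of its arrays lay below that array's brightest tag control probe set, and folds against it are bounds.

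The 47 members, the lists of other genes and the choice of tests were made with earlier results of these data known. Members given with all arrays were set by a rule: the 6 highest and 4 lowest limma t at 24 h and at 36 h over both genotypes, the brightest and the most changed of each role at 24 h, and the 3 smallest p of each genotype comparison. Of each other list up to 4 genes were named, and Myc. In simulated data with 50 of 17097 genes changed at each size, the test over both genotypes at 24 h called 72% at 1.5-fold and 92% at 2-fold with 8 false calls, and the wildtype test 34% and 86% with 5. The changed genes were drawn from those above the median level, and the noise was independent between genes. Each gene's noise had the same spread in all groups, and far fewer genes were changed than were called at 24 h in the data. These rates therefore do not hold for dim members or for members that shift together between pools, and may differ from the rates in these data. Promoter sequences are from RefSeq on GRCm38.p6. The alternatives changed the normalization (quantile, or centring each array on its median), the pseudocount (1 or 64) and the genes kept (without the dimmest 25% or 50%). They also changed the probe sets (the mean of a gene's probe sets, or none of the _x_at class) and the variance model (plain eBayes). The last changed the arrays fitted (those compared alone, or all but 1) and the design (a replicate block). An _x_at probe set stood for 1 member, and the _s_at class, used for 4 members, stayed in. Plots used matplotlib 3.10.9 in Python 3.11.15.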

Additional observations from a re-analysis of the deposited data

Results flagged for a closer look

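Tsr1, a factor of small subunit maturation, was outside the comparisons because its probe set here is also annotated to Srr, the serine racemase gene. That probe set showed a signal all the same. Its log2 change at 24 h over both genotypes was 1.34, and every array at 24 h lay above every array at 0 h. At 36 h it stood at 1.07. Which of the 2 genes the reading comes from was not tested.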

How the results depend on the processing

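The 16 counts of members called moved by over 1.5 times under few alternatives other than leaving out an array. With the mean of all probe sets, wildtype 36 h against 0 h had 4 in place of 7, and 36 h against 24 h had 1, Ubtf, in wildtype liver and 1, also Ubtf, over both genotypes. With only the arrays compared, wildtype 36 h against 0 h had 15, and Socs2-null 24 h against 0 h had 14 in place of 26. The average over the times uses all arrays and has no such value. With 1 array left out the counts ran from 7 to 34 (Socs2-null 24 h against 0 h), 8 to 34 (Socs2-null 36 h), 7 to 32 (wildtype 24 h), 0 to 10 (wildtype 36 h), 33 to 38 and 18 to 35 (both genotypes at 24 h and 36 h), and 0 to 1 for 36 h against 24 h over both genotypes (Wdr12), for the genotypes at 0 h and for their difference in the 36 h response (Ltv1 in both). Leaving out 1 array leaves 1 pool in its group, assumed to vary like the others. With the replicate block the counts were 21 and 21 in Socs2-null, 26 and 7 in wildtype and 37 and 25 over both genotypes at 24 h and 36 h, and 0 elsewhere. The deviations of like-numbered pools correlated above 0.1 in 3 of 15 pairs of groups (-0.50 to 0.35), so like numbers did not go together as a rule. With 2 pools a group the sign depends on which is numbered 1. These values therefore cannot show whether pools pair under another numbering. Of the values of named members under alternatives, 1425 kept direction and side of the threshold, 13 passed newly and 37 no longer. The 5 that changed sign, with the cause not tested, were small. Rrn3 turned without Socs2-null 0 h pool 1 at 24 h (-0.0070, in a range of -0.0070 to 0.17 over arrays left out) and at 36 h (-0.038, in a range of -0.038 to 0.14), and at 36 h without Socs2-null 36 h pool 1 (-0.0035). Ubtf at 24 h turned with arrays centred (0.037), and Rrp9 at 36 h without Socs2-null 36 h pool 2 (0.10, in a range of -0.22 to 0.10). Centring moved the median of all genes at 24 h over both genotypes to 0.038, against -0.063 without it. Wdr75, Ncl and Rrp12 lay near or under background, which limits their folds.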

Other observations

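Several members not given by array above followed the same course. Nip7, a large subunit factor, read 202 and 203 in Socs2-null and 214 and 211 in wildtype pools at 0 h, 296 and 585 against 641 and 459 at 24 h, and 768 and 368 against 295 and 376 at 36 h. Nolc1, the snoRNP chaperone, read 169.9 and 166 in Socs2-null and 199 and 208 in wildtype pools at 0 h, 255 and 488 against 531 and 346 at 24 h, and 596 and 352 against 317 and 404 at 36 h. In both, Socs2-null 36 h pool 1 was the highest or the next to highest array, and all later arrays lay above those at 0 h. Gnl2, a nucleolar GTPase of the large subunit, read 190.1 and 206 in Socs2-null and 215 and 171 in wildtype pools at 0 h, 194 and 504 against 522 and 342 at 24 h, and 549 and 277 against 277 and 301 at 36 h. Its Socs2-null 24 h pool 1 lay within the 0 h range while the other 7 later arrays lay above it.

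Among other genes of the pathway, Ngdn rose by 1.06 ± 0.13 at 24 h, Nol11 by 0.70 ± 0.10 and the GTPase gene Bms1 by 0.66 ± 0.11, all of small subunit assembly. Of large subunit assembly, Rrp15 rose by 0.89 ± 0.16, Mrto4 by 0.76 ± 0.10 and Mak16 by 0.73 ± 0.13. Polr1c (0.39 ± 0.097) and Polr1d (0.31 ± 0.094), subunits shared by RNA polymerases I and III, rose at 24 h and did not pass at 36 h (adjusted p of 0.508 and 0.205). The exosome genes Exosc9 and Exosc3 rose by 0.70 and 0.72, and Nufip1, a snoRNP assembly gene, stood at 0.29 (adjusted p = 0.114).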
